A study of Homo sapiens with 6 samples.

Results

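Immediate early genes are switched on within minutes of a growth factor, serum or stress signal, before any new protein is made, and many of their products are transcription factors that carry the signal on to later genes. The 10 genes followed here are *FOS*, *FOSB*, *FOSL1*, *JUN*, *JUNB*, *EGR1*, *IER2*, *IER3*, *ATF3* and *MYC*. They were taken by symbol from a table of 60663 genes, each symbol matched 1 row, and all 10 were among the 16920 genes with enough counts to be tested. The question was how their RNA levels differed after silencing of *LTBP2*, which encodes a secreted microfibril-associated protein of the extracellular matrix, and how far the replicates of a group differed among themselves.

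The cells were CCD18Co, an established line of normal human colon fibroblasts, grown in medium with serum. They were exposed for 6 h to siRNAs that target *LTBP2* as a pool (siLTBP2) or to a pool with no target (siNT), both delivered with lipofectamine, and were frozen 48 h after transfection. There were 3 libraries of each group, numbered 1 to 3, so that all 6 libraries come from a single line, carry a transfection and differ by design in the siRNA pool only. No untransfected cells and no other siRNA against *LTBP2* were analysed here, and 48 h is far later than the minutes over which these genes answer an acute signal, so the values are levels in serum long after transfection and not an acute induction.

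The FOS proteins (FOS, FOSB, FOSL1) pair with JUN proteins (JUN, JUNB) through leucine zippers to form the dimeric factor AP-1, and ATF3 is a related zipper protein that can pair with JUN and often represses. EGR1 is a zinc finger factor, MYC a helix-loop-helix factor that drives growth genes, IER2 a nuclear protein of the same early wave, and IER3 a small protein tied to survival signals. In fibroblasts the pathway from growth factor receptors through RAS and the kinases MEK and ERK is a main route to these genes, acting on the factor SRF and its ETS partners, and ERK in turn induces phosphatases and Sprouty proteins that restrain it.

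Each library held between 44663424 and 53576899 counted reads. Levels are given as CPM, the share of a library's counts on a common scale, after TMM normalisation, which corrects for differences in library composition. *LTBP2* was 24.97, 23.11 and 21.20 CPM in siNT replicates 1 to 3 and 6.49, 8.61 and 6.00 CPM in siLTBP2 replicates 1 to 3, so the targeted RNA was lower in every siLTBP2 library (log2 fold change -1.72, standard error 0.15, adjusted p = 6.6e-05 in edgeR's quasi-likelihood test). A gene is called changed below at an adjusted p under 0.05 in that test, adjusted over all genes tested. Over all genes, 19.3% changed, 9.76% upwards and 9.51% downwards, and 2.57% passed the stricter thresholds of the study (adjusted p under 0.01 and more than 2-fold), here called deregulated. Libraries of the same replicate number deviated together, so values from a second fit with the replicate number as a blocking term (the blocked fit) are given where they alter a result. In the blocked fit 36.2% of all genes changed, the share to set beside the blocked counts of the lists below. Members and lists were chosen with earlier results of these data known, so their counts describe the named genes only. Fibroblast markers were abundant, with summed levels of 9933 to 13204 CPM in siNT and 10067 to 14406 CPM in siLTBP2. Of 7 epithelial markers, *EPCAM*, *CDH1*, *KRT20*, *CDX2* and *VIL1* were too low to test, and of 6 leukocyte markers 5 were. *KRT8* and *KRT18* were high enough to test, and the epithelial markers summed to 40.3 to 52.7 CPM in siNT. Endothelial markers summed to 67.4 to 83.6 CPM and smooth muscle markers to 39.9 to 41.9 CPM in siNT.

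The regions upstream of 4 members are shown first, because these genes differ in direction (*JUN* and *IER2* higher, *ATF3* lower) or in spread between replicates (*EGR1*), and because SRF, CREB and ATF proteins are known to act on such sites. The sequences are from RefSeq (GRCh38.p14), run 5′ to 3′ on the gene's strand, and end at the last base before the annotated start. Capitals mark a CArG box, the SRF site, or the words TGACATCA and TGACGT, bound by ATF, CREB and JUN family proteins, TATAAA, the TATA box, and CGGAAG, the ETS core, on either strand.
JUN, chr1:58784048-58784297, minus strand: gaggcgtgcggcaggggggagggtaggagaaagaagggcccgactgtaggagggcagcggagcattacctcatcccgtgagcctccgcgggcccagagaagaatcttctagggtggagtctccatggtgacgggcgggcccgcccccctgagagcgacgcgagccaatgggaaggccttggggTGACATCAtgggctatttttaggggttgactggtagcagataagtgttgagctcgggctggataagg
IER2, chr19:13150161-13150410, plus strand: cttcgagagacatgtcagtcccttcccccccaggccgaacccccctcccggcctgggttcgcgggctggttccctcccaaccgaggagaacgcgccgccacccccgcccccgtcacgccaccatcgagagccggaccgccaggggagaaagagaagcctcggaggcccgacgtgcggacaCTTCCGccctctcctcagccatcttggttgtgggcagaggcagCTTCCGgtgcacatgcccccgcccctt
ATF3, chr1:212565157-212565406, plus strand: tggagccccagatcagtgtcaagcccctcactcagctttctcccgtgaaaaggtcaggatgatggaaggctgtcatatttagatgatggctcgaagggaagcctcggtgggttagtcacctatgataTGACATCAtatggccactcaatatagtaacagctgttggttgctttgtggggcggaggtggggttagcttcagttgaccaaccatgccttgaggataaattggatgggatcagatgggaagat
EGR1, chr5:138465229-138465478, plus strand: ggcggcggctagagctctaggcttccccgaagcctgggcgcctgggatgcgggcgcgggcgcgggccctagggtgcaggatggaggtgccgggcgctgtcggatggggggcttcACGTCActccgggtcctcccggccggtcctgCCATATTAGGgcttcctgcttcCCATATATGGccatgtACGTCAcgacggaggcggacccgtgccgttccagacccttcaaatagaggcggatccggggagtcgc

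Among the 8 windows of 7 members, that of *EGR1* alone held a CArG box. It held 2, at -105 to -96 and at -83 to -74 from the start. Bases more than 250 before the start were not searched, so other members may hold a CArG box there. A CArG box is found in 1.29% of 35116 promoter windows of the same length (250 bases before to 50 after the start). *EGR1* also held TGACGT at -136 to -131 and at -67 to -62, and GCGNGGGCG, the word that EGR proteins themselves bind, at -198 to -190. TGACGT occurred at -64 to -59 in *FOS* and at -60 to -55 in *FOSB*, and in 7.98% of all windows. TGACATCA was in *JUN* at -67 to -60 and in *ATF3*, at its first annotated start only, at -123 to -116, against 2.61% of all windows. Whether the word had a part in either change was not tested. *IER2* held 2 copies of CGGAAG (19.5% of all windows) and 4 of GGGCGG, the GC box (44.95% of all windows); the copies of each at -70 to -65 and at -67 to -62 overlap. Neither TGACGTCA nor TGANTCA, the full CRE and the AP-1 site, was found in the 8 windows of the 7 members matched. They occur in 1.85% and 7.71% of all windows. *FOSL1*, *IER3* and *MYC* are named only. *ATF3* has a pair of annotated starts, of which the first is the one printed above, and gene-level counts do not tell which was used.

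**Figure D1:**
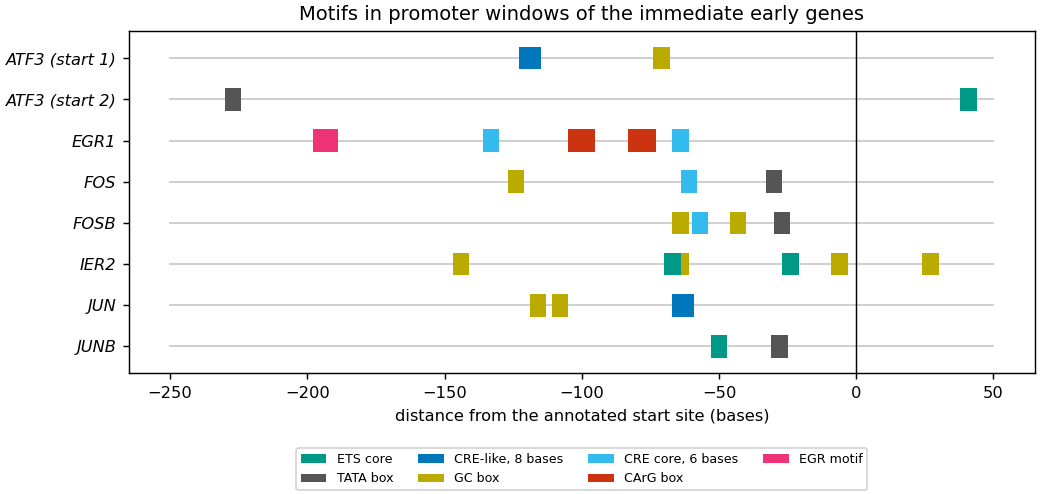
Position of each motif (coloured boxes) in the 8 promoter windows of 7 immediate early genes, against distance from the annotated start in bases. The red CArG boxes are seen in *EGR1* alone, and the dark blue CRE-like word of 8 bases in *JUN* and the first start of *ATF3*.

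Of the 10 immediate early genes, *FOSL1*, *JUN* and *IER2* rose and *ATF3* fell in siLTBP2, and none was deregulated. These 4 of 10 stand beside 19.3% of all genes tested, and the 3 that rose beside 9.76%. The fold changes of the 4 were modest, from 0.68-fold for *ATF3* to 1.73-fold for *IER2*. *FOS*, *FOSB*, *JUNB*, *EGR1*, *IER3* and *MYC* did not pass. The median log2 fold change of the 10 was 0.24, against -0.01 over all genes tested. In 6 of the 10, the siLTBP2 libraries lay entirely on 1 side of the siNT libraries, as in 37% of all genes tested. In the blocked fit, 7 of the 10 changed (5 up and 2 down), beside 36.2% of all genes.

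**Figure D2:**
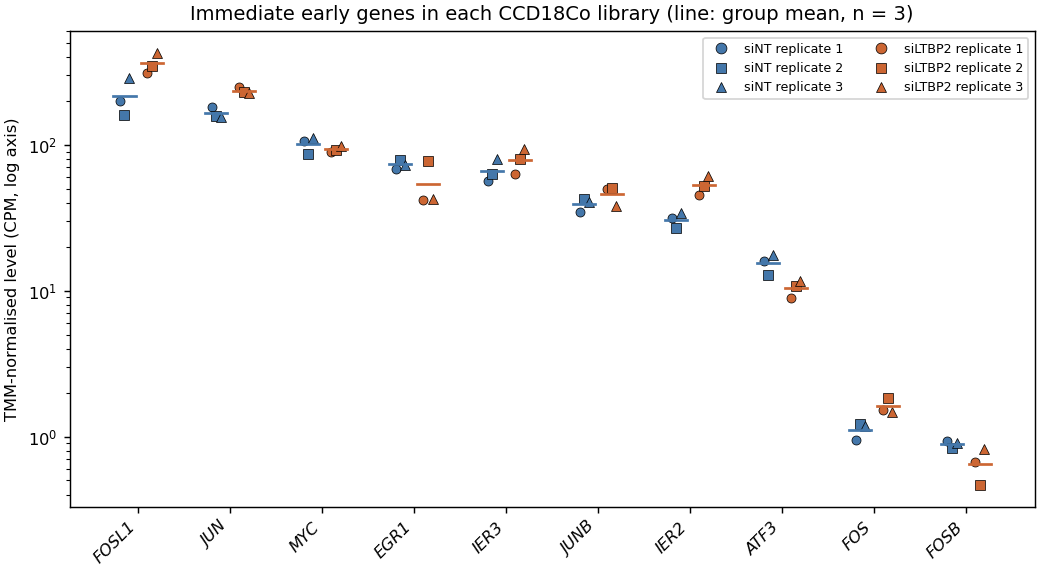
TMM-normalised level (CPM, log axis) of the 10 genes in each of the 6 libraries, blue for siNT and orange for siLTBP2, with marker shape for the replicate number and a line at the group mean (n = 3). The groups do not overlap for *FOSL1*, *JUN*, *IER2*, *ATF3*, *FOS* and *FOSB*, and *FOS* and *FOSB* lie near 1 CPM.

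*FOSL1* encodes FRA-1, the FOS family member that persists longest after stimulation and is linked to motility and invasion. Its level was 199, 161 and 285 CPM in siNT replicates 1 to 3 and 313, 345 and 428 CPM in siLTBP2 replicates 1 to 3. All siLTBP2 libraries were above all siNT libraries, but siNT replicate 3 was only slightly below siLTBP2 replicate 1. The mean rose from 215 ± 63.9 to 362 ± 58.9 CPM (SD, n = 3), and the log2 fold change was 0.75 (standard error 0.19, 95% interval 0.34 to 1.17, adjusted p = 0.018 in edgeR). Without siNT replicate 1 the log2 fold change was 0.69 (adjusted p = 0.066 in edgeR) and without siNT replicate 2 it was 0.58 (adjusted p = 0.067 in edgeR), so the call rested on these libraries. Without siNT replicate 3 it was 1.01, past the thresholds for a deregulated gene. With all libraries the blocked fit gave a log2 fold change of 0.78 (adjusted p = 9.7e-09 in edgeR). The log2 ratios within replicate numbers 1, 2 and 3 were 0.65, 1.11 and 0.58.

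*FOS*, the founding member of the family, is short-lived at both the RNA and the protein level. It was 0.951, 1.22 and 1.19 CPM in siNT and 1.51, 1.84 and 1.48 CPM in siLTBP2, from 44 to 64 and 66 to 87 reads. Every siLTBP2 library was above every siNT library, and the log2 fold change was 0.52 (95% interval 0.05 to 0.99), with an adjusted p of 0.11 in edgeR. The change thus missed the threshold, with an interval that spans almost no difference to nearly a doubling. *FOSB* was 0.930, 0.830 and 0.909 CPM in siNT and 0.665, 0.465 and 0.816 CPM in siLTBP2, from 22 to 49 reads in all 6. The siLTBP2 libraries were all below the siNT libraries, with siLTBP2 replicate 3 closest. Its log2 fold change of -0.45 had an interval of -1.04 to 0.14 and did not pass (adjusted p = 0.28 in edgeR).

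*JUN*, the main partner of the FOS proteins, had the most even values of the 4 changed genes. It was 182, 159 and 156 CPM in siNT and 248, 230 and 228 CPM in siLTBP2. The siLTBP2 libraries were all above the siNT libraries, and replicate 1 was the highest of both groups. The mean rose from 165 ± 14.1 to 235 ± 10.7 CPM (SD, n = 3), 1.42-fold, with a log2 fold change of 0.51 (standard error 0.09, 95% interval 0.31 to 0.71, adjusted p = 0.0033 in edgeR). The call held with each library left out in turn, with log2 fold changes of 0.47 to 0.58.

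*JUNB*, a JUN protein that often opposes JUN in growth control, was 34.7, 42.4 and 40.7 CPM in siNT and 49.5, 51.0 and 38.2 CPM in siLTBP2. The groups overlapped, because siLTBP2 replicate 3 was below 2 of the siNT libraries. The log2 fold change was 0.23 (95% interval -0.04 to 0.51, adjusted p = 0.22 in edgeR). Without siLTBP2 replicate 3 it was 0.36 and passed (adjusted p = 0.039 in edgeR), and in the blocked fit it was 0.23 and passed (adjusted p = 0.040 in edgeR). The ratio within number 3 was nevertheless below 0, at -0.09, against 0.51 and 0.27 within numbers 1 and 2. *JUNB* shares 259 exon bases with *HOOK2* on the opposite strand, which had 277 to 414 reads per library.

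*ATF3*, a stress-induced member of the same zipper family, moved the opposite way to *JUN*. It was 16.0, 12.9 and 17.5 CPM in siNT and 8.95, 10.7 and 11.7 CPM in siLTBP2. All siLTBP2 libraries were below all siNT libraries, with siNT replicate 2 the closest to them. The mean fell from 15.5 ± 2.38 to 10.5 ± 1.41 CPM (SD, n = 3), and the log2 fold change was -0.56 (standard error 0.15, 95% interval -0.89 to -0.24, adjusted p = 0.022 in edgeR). The call was lost when siNT replicate 1 or 3, or siLTBP2 replicate 1 or 2, was left out, with adjusted p-values in edgeR of 0.068, 0.080, 0.077 and 0.066. The direction held each time, with log2 fold changes from -0.68 to -0.46. The blocked fit gave an adjusted p of 8.3e-05 in edgeR.

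*EGR1*, which links growth signals to matrix and growth factor genes, was 68.7, 78.7 and 73.0 CPM in siNT and 42.0, 77.01 and 42.4 CPM in siLTBP2. In siLTBP2, replicates 1 and 3 were well below all siNT libraries, whereas replicate 2 lay among them. The means were 73.5 ± 5.02 and 53.8 ± 20.1 CPM (SD, n = 3), and the log2 fold change of -0.45 (95% interval -0.89 to -0.01) did not pass (adjusted p = 0.15 in edgeR). Without siLTBP2 replicate 2 the log2 fold change was -0.80 and passed (adjusted p = 0.0018 in edgeR), and without siLTBP2 replicate 1 or 3 it was -0.30 and did not. With all 6 libraries it passed with no low-count filter (-0.46, adjusted p = 4.2e-04 in edgeR) and in the blocked fit, at -0.50 (adjusted p = 8.9e-05 in edgeR), although the ratios within numbers 1, 2 and 3 were -0.71, -0.03 and -0.78.

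*IER2* had the highest log2 fold change of the 10 genes, close to that of *FOSL1*. It was 31.4, 26.7 and 33.9 CPM in siNT and 45.3, 52.3 and 61.6 CPM in siLTBP2. Every siLTBP2 library was well above every siNT library. The mean rose from 30.7 ± 3.63 to 53.1 ± 8.17 CPM (SD, n = 3), and the log2 fold change was 0.79 (standard error 0.13, 95% interval 0.51 to 1.07, adjusted p = 0.0020 in edgeR), and the call held with each library left out (0.67 to 0.89). An unnamed noncoding RNA on the opposite strand, ENSG00000267598, shares 946 exon bases with *IER2* and had 5 to 23 reads per library, against 1319 to 3245 for *IER2*.

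*IER3* was 56.6, 63.1 and 80.0 CPM in siNT and 63.4, 80.5 and 93.8 CPM in siLTBP2. The groups overlapped, and in both the library numbered 1 was the lowest and that numbered 3 the highest. The log2 fold change of 0.25 (95% interval -0.09 to 0.59) did not pass (adjusted p = 0.30 in edgeR). Within replicate numbers the ratios were 0.16, 0.35 and 0.23, and in the blocked fit the change passed (log2 fold change 0.25, adjusted p = 0.0069 in edgeR). *IER3-AS1*, on the opposite strand with 440 shared exon bases, had 8 to 18 reads per library.

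*MYC* was 106, 86.3 and 112 CPM in siNT and 88.7, 93.0 and 98.8 CPM in siLTBP2. The siLTBP2 libraries all lay within the range of the siNT libraries. Its log2 fold change was -0.12 (95% interval -0.35 to 0.11, adjusted p = 0.49 in edgeR), and the interval does not reach a 2-fold difference in either direction. It did not pass in the blocked fit either (adjusted p = 0.28 in edgeR).

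For single genes, an exact permutation test over the 6 libraries (two-sided) gave p = 0.1 for the 6 genes whose groups did not overlap, which is the smallest p that 3 libraries against 3 allow. It gave p = 0.3 for *JUNB* and *EGR1*, p = 0.2 for *IER3* and p = 0.5 for *MYC* (exact permutation test).

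**Figure D3:**
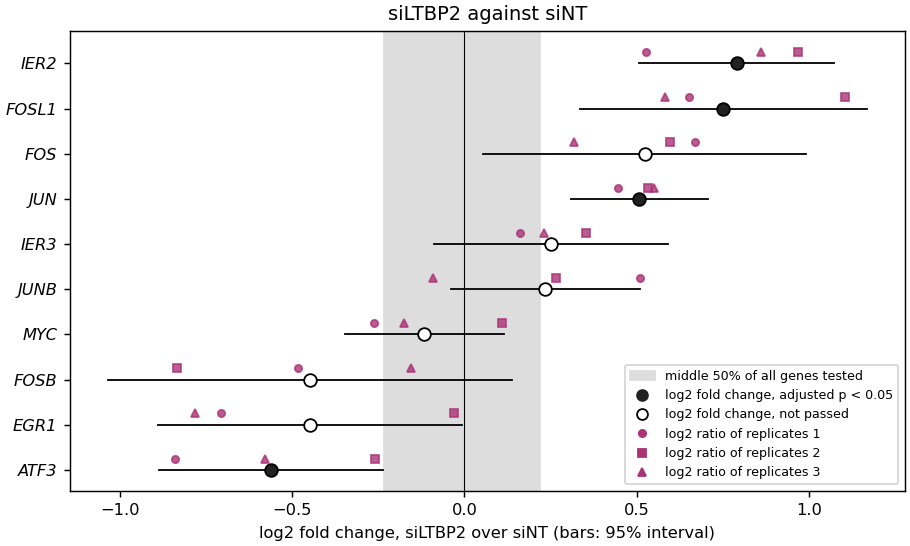
Log2 fold change of siLTBP2 over siNT for the 10 genes (circles, filled where the adjusted p was below 0.05) with 95% intervals (bars), and the log2 ratio within each replicate number (small markers, n = 3). The grey band holds the middle 50% of all genes tested. *IER2*, *FOSL1*, *JUN* and *ATF3* are filled, and the ratios of *EGR1* within numbers 1 and 3 lie near -0.7 while that within number 2 lies near 0.

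The levels of the 10 genes differed far more between genes than between groups. Per kilobase of exon, *FOSL1* was the most abundant in siNT at 114 ± 33.8 CPM per kilobase (SD, n = 3). *IER3* (49.3 ± 8.93 CPM per kilobase) and *JUN* (45.6 ± 3.90) came next, and their ranges overlapped. *EGR1* (23.4 ± 1.60) and *JUNB* (21.5 ± 2.21) also overlapped, and *MYC* (16.6 ± 2.19), *IER2* (9.96 ± 1.18) and *ATF3* (3.87 ± 0.595) followed in separate ranges. *FOS* at 0.351 ± 0.0455 and *FOSB* at 0.160 ± 0.00942 CPM per kilobase were the lowest. In siLTBP2 the order changed in the middle: *JUN* was above *IER3*, *JUNB* (25.3 CPM per kilobase) was above *EGR1*, and *IER2* (17.2 CPM per kilobase) reached *EGR1* (17.2 CPM per kilobase). With the longest annotated transcript as the length, *MYC* ranked 4 of the 10 in siNT. By that length *JUN* (50.8 CPM per kilobase) was already above *IER3* (49.3 CPM per kilobase) in siNT.

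Several of the 10 genes varied more between replicates than genes of like level. The pooled within-group SD of log2(CPM + 0.5) was 0.36 for *EGR1*, 0.34 for *FOSL1* and 0.27 for *IER3*, above 98.4%, 97.1% and 96.6% of the genes tested whose mean level was within 0.5 log2 units. *IER2* (0.20) and *JUNB* (0.19) were above 85.5% and 84.3% of such genes, and *ATF3* (0.21) and *MYC* (0.15) above 76.4% and 74.1%. *JUN* (0.10), *FOSB* (0.16) and *FOS* (0.13) were below the median of genes of like level. The median over all genes tested was 0.15.

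The libraries behind this spread were not the same for every gene. The SD of *EGR1* was 0.10 in siNT and 0.50 in siLTBP2, where replicate 2 stood apart. That of *FOSL1* was 0.42 in siNT, where the highest library was 1.78-fold above the lowest, and 0.23 in siLTBP2. Of the siLTBP2 libraries, replicate 3 was the highest in 6 of the 10 genes, against 37.0% of all genes tested, and replicate 1 the lowest in 6, against 32.9%. Of the siNT libraries, replicate 3 was the highest in 5 of the 10 (32.7% of all genes) and replicate 2 the lowest in 5 (36.3%).

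**Figure D4:**
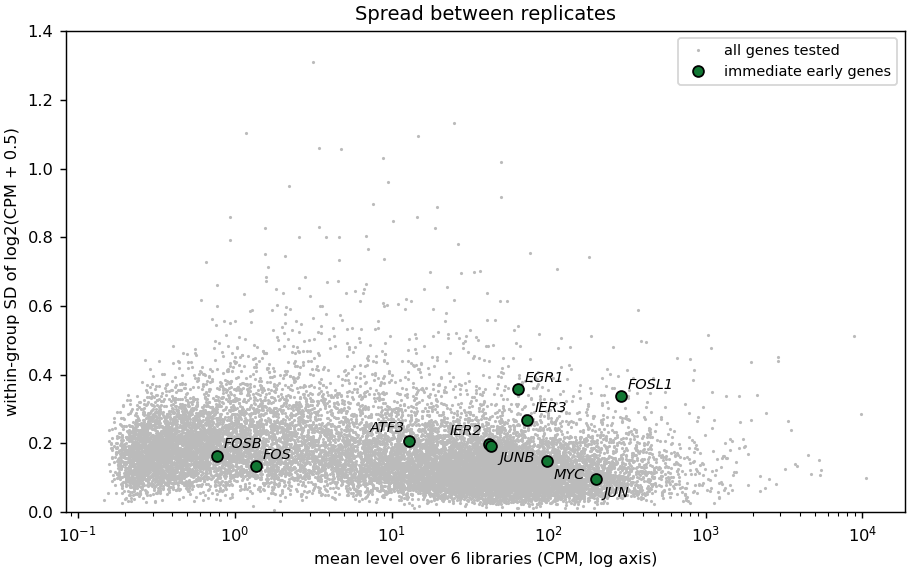
Within-group SD of log2(CPM + 0.5), pooled over both groups, against the mean level over the 6 libraries (CPM, log axis) for all genes tested (grey) and the 10 immediate early genes (green). *EGR1*, *FOSL1* and *IER3* lie above nearly all genes of like level, and *FOS* and *JUN* in the lower part of the cloud.

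Among the other AP-1 factors, 1 of 7 tested changed, beside 19.3% of all genes tested. *JDP2*, a repressor that pairs with JUN and ATF proteins, fell from 23.3, 22.8 and 24.5 CPM in siNT to 13.3, 15.6 and 14.7 CPM in siLTBP2 (log2 fold change -0.70, adjusted p = 0.0012 in edgeR). The blocked fit also called *FOSL2*, which encodes FRA-2, lower (2 of 7 changed, log2 fold change -0.26). The median log2 fold change of the 7 was -0.07.

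Other immediate early transcription factors and nuclear proteins rose in 5 of 14 tested and fell in none, beside 19.3% of all genes changed. Their median log2 fold change was 0.13. *KLF2*, a zinc finger factor better known from endothelium, went from 6.70, 3.77 and 6.34 CPM in siNT to 9.68, 9.83 and 17.5 CPM in siLTBP2 (log2 fold change 1.14, adjusted p = 0.013 in edgeR). *MAFF*, a small MAF protein, went from 11.4, 13.5 and 24.3 to 24.8, 31.2 and 48.2 CPM (log2 fold change 1.08, adjusted p = 0.024 in edgeR). *KLF6* (log2 fold change 0.47), *IER5* (0.27) and *IER5L* (0.57) also rose. The call of *KLF2* was lost without siNT replicate 2 (log2 fold change 0.80 to 1.29 over the libraries left out), that of *MAFF* without siNT replicate 1 or 2 (0.77 to 1.49), and those of *IER5* and *IER5L* on leaving out 5 and 4 of the 6 libraries singly. In the blocked fit 6 rose, with *KLF4* (0.76) added, and 3 fell. The 3 were *EGR3* (-0.58), *NR4A1* (-0.30) and *NR4A3* (-0.56).

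Of 12 other immediate early products, 4 rose and 2 fell, beside 19.3% of all genes changed. Their median log2 fold change was 0.18. *MCL1*, a survival protein, rose from 202, 195 and 206 CPM in siNT to 291, 294 and 323 CPM in siLTBP2 (log2 fold change 0.59, adjusted p = 0.0010 in edgeR). The kinases *SGK1* (0.72) and *PLK3* (0.66) and the small GTPase *GEM* (0.67) also rose, *GEM* with a call that was lost without siNT replicate 1 or 2. *RGS2*, a brake on G protein signalling, fell from 33.3, 36.6 and 28.3 to 19.4, 16.8 and 11.1 CPM (log2 fold change -1.06, adjusted p = 0.0026 in edgeR), and was deregulated. Its log2 fold change was -1.23 to -0.85 over the libraries left out, so it was under 2-fold without some single library. *PTGS2*, the inducible cyclooxygenase, fell by 0.93 on the log2 scale (adjusted p = 0.037 in edgeR), a call that held only without siNT replicate 1 among the 6 libraries left out. Blocked, 5 of the 12 rose and 4 fell, with *HBEGF* (0.76), *PLK2* (-0.46) and *CCN1* (-0.24) added. Of the 3 mRNA decay factors of the tristetraprolin family, which destabilise AU-rich early transcripts, *ZFP36L2* rose (0.54, adjusted p = 0.0051 in edgeR), and *ZFP36* (0.26) passed only in the blocked fit.

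MAPK phosphatases and ERK feedback genes rose in 7 of 16 tested and fell in 1, beside 19.3% of all genes changed. Their median log2 fold change was 0.39 against -0.01 over all genes. The list was chosen with earlier results of these data known, so these shares describe the listed genes only. The list also holds phosphatases that act mainly on the stress kinases JNK and p38, such as *DUSP8*, *DUSP10* and *DUSP16*. *DUSP5*, a nuclear ERK phosphatase, went from 8.74, 9.62 and 11.6 CPM in siNT to 24.9, 29.6 and 47.5 CPM in siLTBP2 (log2 fold change 1.77, adjusted p = 4.0e-04 in edgeR). *DUSP6*, the cytoplasmic ERK phosphatase, went from 37.6, 33.7 and 43.1 to 79.6, 84.8 and 83.6 CPM (log2 fold change 1.12, adjusted p = 8.0e-05 in edgeR). *SPRY2*, a Sprouty inhibitor of receptor signalling, went from 27.2, 26.1 and 41.1 to 47.0, 68.2 and 88.4 CPM (log2 fold change 1.11, adjusted p = 0.0064 in edgeR). In all 3 the groups were apart, and all 3 were deregulated, although *SPRY2* had log2 fold changes of 0.88 to 1.35 over the libraries left out and so fell below 2-fold in at least 1 case. *DUSP4* (0.93), *SPRY4* (0.76), *SPRED2* (0.43) and *SPRED1* (0.41) rose by less, and *SPRY1* fell by 0.62 on the log2 scale. The 8 calls held whichever single library was left out. The blocked fit changed these counts to 10 that rose and 4 that fell. The added ones that rose were *DUSP1* (0.39), *DUSP16* (0.29) and *SPRED3* (0.27). Those added that fell were *DUSP10* (-0.22), *ERRFI1* (-0.31) and *PHLDA1* (-0.23).

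**Figure D5:**
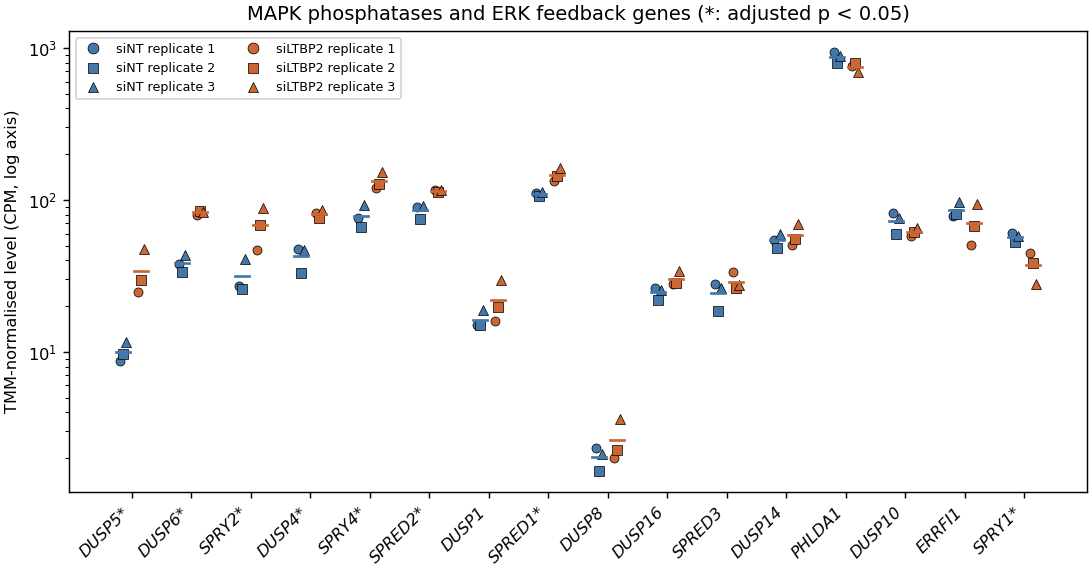
TMM-normalised level (CPM, log axis) of 16 MAPK phosphatases and ERK feedback genes in each library, ordered by log2 fold change from the highest (left) to the lowest (right), with a line at each group mean (n = 3) and an asterisk where the adjusted p was below 0.05. The orange siLTBP2 points of *DUSP5*, *DUSP6* and *SPRY2* lie clear of the blue siNT points, and those of *SPRY1* lie below them.

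Upstream of the immediate early genes, the ETS partners of SRF differed in direction. *ELK1* did not pass (log2 fold change 0.11, adjusted p = 0.49 in edgeR). *ELK3* rose from 100, 93.2 and 102 CPM in siNT to 164, 177 and 204 CPM in siLTBP2 (log2 fold change 0.88, adjusted p = 2.3e-04 in edgeR). *ELK4* fell from 255, 231 and 272 to 121, 133 and 135 CPM (log2 fold change -0.96, adjusted p = 1.1e-04 in edgeR). *ELK3* and *ELK4* were the 2 of 8 tested that changed in the list of SRF, its cofactors and the EGR corepressors (19.3% of all genes). In the blocked fit 4 of 8 changed (36.2% of all genes), where *MRTFB* (0.28) was higher and *MRTFA* (-0.28) lower. Of 18 MAP kinases and effectors, *MAP2K1*, which encodes MEK1, rose (log2 fold change 0.53, adjusted p = 0.0099 in edgeR), as did *MAPK9* (0.32), which encodes a JUN kinase. *RPS6KA2*, an ERK-activated kinase, fell (-0.78, adjusted p = 9.7e-04 in edgeR). The call of *MAPK9* was lost on leaving out 4 of the 6 libraries singly. In the blocked fit 6 rose and 2 fell, beside 36.2% of all genes. Without the block 16.7% of the 18 changed, near the 19.3% of all genes. RNA levels of kinases do not measure their activity.

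Of 11 tested genes known as AP-1 targets, 4 rose and 3 fell, and 6 of these 7 were deregulated. Over all genes tested, 19.3% changed and 2.57% were deregulated. This list too was chosen with earlier results of these data known, so its shares describe the listed genes only. *PLAU* and *PLAUR*, the urokinase protease and its receptor, rose with log2 fold changes of 1.24 and 1.47 (adjusted p = 4.1e-04 and 1.3e-04 in edgeR), and *MMP1*, interstitial collagenase, with 1.00 (adjusted p = 0.0019 in edgeR). *MMP1* lies at the 2-fold limit of a deregulated gene, with 0.97 under total counts and 0.82 to 1.16 over the libraries left out. *PLAU* went from 691, 508 and 771 CPM in siNT to 1457, 1448 and 1739 CPM in siLTBP2. *IL6* and *LIF*, cytokines of the same receptor family, fell. *IL6* went from 24.97, 32.4 and 32.7 to 6.40, 7.91 and 9.55 CPM (log2 fold change -1.91, adjusted p = 5.7e-05 in edgeR), and *LIF* had a log2 fold change of -1.43. *HMOX1*, heme oxygenase, fell too (-1.03, or -1.23 to -0.87 over the libraries left out), and *CCND1*, cyclin D1, rose (0.45), with a call that was lost on leaving out 4 of the 6 libraries singly. The median log2 fold change of the 11 was 0.10. The blocked fit gave 5 higher and 4 lower, with *IL11* (0.53) and *TIMP1* (-0.24) added.

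Of 10 stress genes tied to ATF4 and ATF3, 3 rose and none fell, beside 19.3% of all genes changed. The median log2 fold change of the 10 was 0.34. *VLDLR*, a lipoprotein receptor, had a log2 fold change of 1.27, *CEBPB*, a zipper factor, of 0.59, and *CHAC1*, a glutathione-degrading enzyme, of 0.53 (adjusted p = 7.5e-04, 0.015 and 0.0060 in edgeR). In the blocked fit 7 of the 10 stress genes were higher, among them *ATF4* (0.39) and *DDIT3* (0.28), while *ATF3* itself was lower.

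Of 8 tested MYC partners and antagonists, *MXD4*, a repressor that competes for MAX, fell by 0.69 on the log2 scale (adjusted p = 0.012 in edgeR), a call that was lost without siNT replicate 2. Of 15 MYC target genes, 4 rose and none fell, with a median of 0.15. Of the partners and antagonists 12.5% changed and of the targets 26.7%, beside 19.3% of all genes tested. *TERT*, the catalytic subunit of telomerase, was 89.1, 53.1 and 59.8 CPM in siNT and 335, 238 and 345 CPM in siLTBP2 (log2 fold change 2.18, adjusted p = 8.1e-05 in edgeR). The labels and methods name no introduced *TERT*, and counts per gene do not tell an introduced copy from the gene itself. The rise of *TERT*, 1 of the 4 targets that rose, thus cannot be assigned to the cells' own gene. *CCND2*, cyclin D2, stayed under 1 CPM in every library (2 to 5 reads in siNT and 19 to 38 in siLTBP2). *LDHA* (0.32) and *RRS1* (0.36) rose by less. The call of *LDHA* was lost whichever single library was left out, and that of *RRS1* held only without siNT replicate 3. The blocked fit gave 5 higher and 1 lower, with *CDK4* (0.28) and *SRM* (-0.26) added.

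Markers of other cell types were counted beside these results. *KRT18*, a keratin, rose (log2 fold change 1.15, adjusted p = 2.4e-04 in edgeR), and with it the summed epithelial markers, from 40.3 to 52.7 CPM in siNT to 85.7 to 99.2 CPM in siLTBP2. Smooth muscle markers summed to 39.9 to 41.9 CPM in siNT and 53.2 to 71.9 CPM in siLTBP2, nearly all from *ACTG2* (0.57). Endothelial markers summed to 67.4 to 83.6 and 59.9 to 74.3 CPM, and leukocyte markers to 0.168 to 0.537 and 0.226 to 0.610 CPM. Of the 5 endothelial markers, only *VWF* and *TEK* were high enough to test. Of the 9 fibroblast markers, *PDGFRB* fell (-0.60) and 8 did not pass, and in the blocked fit all 9 passed, 3 up and 6 down. *KRT8* (0.32) and *VWF* (-0.72) passed in the blocked fit only. The part of these shifts in the results on the immediate early genes was not tested. In bulk RNA, fewer cells with a transcript and less of it per cell cannot be told apart.

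The genes whose pattern over the 6 libraries was most like each member, among 12376 genes with a mean of at least 1 CPM, were close fits in every case, as a search over so many genes with so few libraries gives. For *JUN* it was *CPA4*, a carboxypeptidase (Pearson r 0.998), for *IER2* it was *VASP*, an actin regulator (0.998), and for *FOS* it was *ARHGEF39* (0.999). For *ATF3* it was *SH3BP4* (0.996), for *FOSL1* *RUFY1* (0.995), for *EGR1* *ANAPC5* (0.993), for *IER3* *GMEB2* (0.998), for *MYC* *SLC5A6* (0.994) and for *JUNB* *ALMS1* (0.980). *FOSB*, under 1 CPM, was left out. These values describe 6 libraries that share the group difference and the replicate numbers.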

How the data were processed

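Ribosomal RNA was removed from total RNA of the 6 CCD18Co samples, and stranded libraries were sequenced from both ends. The authors aligned the reads to GRCh38 by STAR, and the deposited values are unnormalised read counts per gene made with HTSeq. The submitters' processing notes name STAR 2.7.1a and HTSeq 0.11.2. How HTSeq treated strand, and which annotation release it used, is not given in the sources used here, so reads of a gene and an overlapping antisense gene may not be separated. Of 60663 genes, 27067 had no count, and 60462 identifiers are in GENCODE 44, from which lengths and overlaps were taken. Promoter sequences were from RefSeq.

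Counts were filtered (filterByExpr, 16920 genes), scaled by TMM and tested with edgeR 4.0.16 in R 4.3.3 (quasi-likelihood, two-sided, no block), with Benjamini-Hochberg adjustment over all genes tested. The study used edgeR's likelihood ratio test, run as an alternative beside DESeq2 1.42.0, other scalings and filters, a replicate block and leaving out each library. The steps were tested on simulated data. Standard deviations on the log2 scale used CPM + 0.5. Files give 44663424 to 53576899 counted reads per library, which limits the precision for genes near 1 CPM, such as *FOS* and *FOSB*.

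The labels number the libraries 1 to 3 in both groups and do not say what a number shares. Deviations from the group means correlated at 0.44, 0.19 and 0.57 between libraries of the same number over all genes tested (-0.50 to 0.07 between different numbers). A fit with the number as a block was therefore run beside the main fit, and blocked values are given where they change a result. The main fit, the exact permutation test and the within-group SDs do not use the numbers. No label says that the libraries came from separate cultures, so p-values measure the spread between these libraries, which may be technical. Libraries of a group differed by more than sampling noise (chi-square per degree of freedom 28.4 to 56.2).

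Named genes were the 10 members, *LTBP2*, genes of the lists at an adjusted p below 0.05 (at most 8 per list), the gene most like each member, and overlapping genes. Genes that passed only with the block were named after their values were seen. Members and lists were chosen with earlier results of these data known.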

Additional observations from a re-analysis of the deposited data

How the results depend on the processing

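The directions of all 10 immediate early genes held under every alternative run (another test, DESeq2, other scalings and filters, the replicate block and each library left out), except that *FOSB*, under 1 CPM, was not tested with a filter of 1 CPM in 3 libraries. Over all members and alternatives, a call stayed as reported in 133 cases, was gained in 10 and was lost in 6. With the replicate block, 7 of the 10 genes changed in the quasi-likelihood test and 8 in the likelihood ratio test, in place of 4, since *JUNB*, *EGR1* and *IER3* passed in both and *FOS* in the latter (adjusted p = 0.042 in edgeR). The block changed no other call of a member. With each library left out in turn, 2 to 5 of the 10 changed, fewest without siNT replicate 1 and most without siLTBP2 replicate 3, and 0 to 1 were deregulated, *FOSL1* without siNT replicate 3. With no low-count filter *EGR1* passed (-0.46, adjusted p = 4.2e-04 in edgeR). Over all genes, 6131 changed with the block and 6354 with the block in the likelihood ratio test, in place of 3261, and 2158 to 2781 with each library left out. Deregulated genes numbered 680 with no filter and 693 with the block in the likelihood ratio test, in place of 434. The causes were not tested. Depth limits *FOS* and *FOSB*, with 22 to 87 reads per library.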

Other observations

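In an earlier search of these data, carriers of the 3′ UTR word GCACCCA were lower in siLTBP2 as a set, so the members were looked up for it. Of 12336 genes with a 3′ UTR in GENCODE 44, 11.8% carry the word. The median log2 fold change was -0.15 in carriers and 0.02 in non-carriers. These medians come from the same data as that search and are no separate support for it. *FOS* and *JUNB* carry 1 copy each, and neither was lower in siLTBP2. *ATF3*, the member that fell, carries none. Among the listed genes that fell, *JDP2*, *RPS6KA2*, *MXD4* and *LIF* carry 1 copy, and so does *SPRED1*, which rose. Whether the word had a part in any of these values was not tested.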
